A study of Sus scrofa with 12 samples.

Results

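The enzymes of glycolysis and of the citric acid cycle were followed in the endometrium of 12 sows. A probe set was taken where the array's annotation gave it exactly 1 gene symbol and that symbol belonged to an enzyme of these pathways, and the brightest probe set over the 12 arrays stood for each gene. This gave 40 genes out of 6765 named genes, chosen from 51 matching probe sets among the 23999 tested. PGAM5, a mitochondrial phosphatase, and PKMYT1, a kinase that restrains entry into mitosis, came in by the letters of their symbols only, so 38 of the 40 are pathway enzymes or their direct regulators.

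The sows were sampled on Day 14 after insemination. The 6 pregnant sows were 3 Yorkshire (sows 2, 4 and 12) and 3 Landrace (sows 6, 8 and 10). The 6 non-pregnant sows had received inactivated semen and were again 3 Yorkshire (sows 1, 3 and 11) and 3 Landrace (sows 5, 7 and 9), with 1 array per sow. The uterine horns of all sows had been flushed before endometrium without its muscle layer was taken, and conceptus tissue still attached would have been measured with it. In such bulk tissue, fewer cells of a type and less RNA per cell cannot be told apart.

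Glycolysis splits glucose in the cytosol into pyruvate, which is either reduced to lactate by lactate dehydrogenase or carried into mitochondria and oxidised by the pyruvate dehydrogenase complex. The citric acid cycle then oxidises the acetyl group through citrate, isocitrate, oxoglutarate, succinate, fumarate and malate. Several of its steps also have a cytosolic enzyme, which serves export of citrate, supply of NADPH and shuttling of reducing power across the mitochondrial membrane. In the pig, the endometrium at this stage supplies glucose and other nutrients to conceptuses that elongate in the lumen before they attach.

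The values are log2 expression values, so a difference of 1 is a doubling, and the level of one probe set cannot be set against that of another. Array medians lay between 6.25 and 6.30, and the correlation of an array with the one most like it, taken over probe sets that are not independent, was between 0.975 and 0.992. Non-pregnant sow 7 had the lowest of these correlations, and 2 pregnant sows were nearest to a non-pregnant one, sow 12 to sow 11 (r = 0.992) and sow 8 to sow 5 (r = 0.983). Among the 40 genes, ENO3 and OGDHL lay below the lower quartile on 11 of 12 arrays, near background. PFKFB4, PGAM2, ENO2 and PKMYT1 lay below the array median on all 12 arrays, PFKM on 11 and ALDOC on 10.

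Pregnant endometrium had lower transcript levels of 6 of the 40 genes and higher levels of 0. The 6 were GAPDH in glycolysis, citrate synthase (CS) and IDH2 in the mitochondrial cycle, and all 3 cytosolic counterparts of cycle enzymes, ACO1, IDH1 and MDH1. A gene was called when its adjusted p was under 0.05 (limma, Benjamini-Hochberg over 23999 probe sets, pregnant minus non-pregnant with breed as a term). Of all probe sets, 3.94% were called lower and 3.95% higher, and of the brightest probe sets of the 6765 genes, 7.48% were called lower and 4.58% higher. At an unadjusted p under 0.05, 14 of the 40 were lower and 2 higher, against 19.6% and 11.6% of the 6765. The median log2 difference of the 40 was -0.18, with 30 below zero, where that of the 6765 genes was -0.03 with 55.7% below zero.

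**Figure D1:**
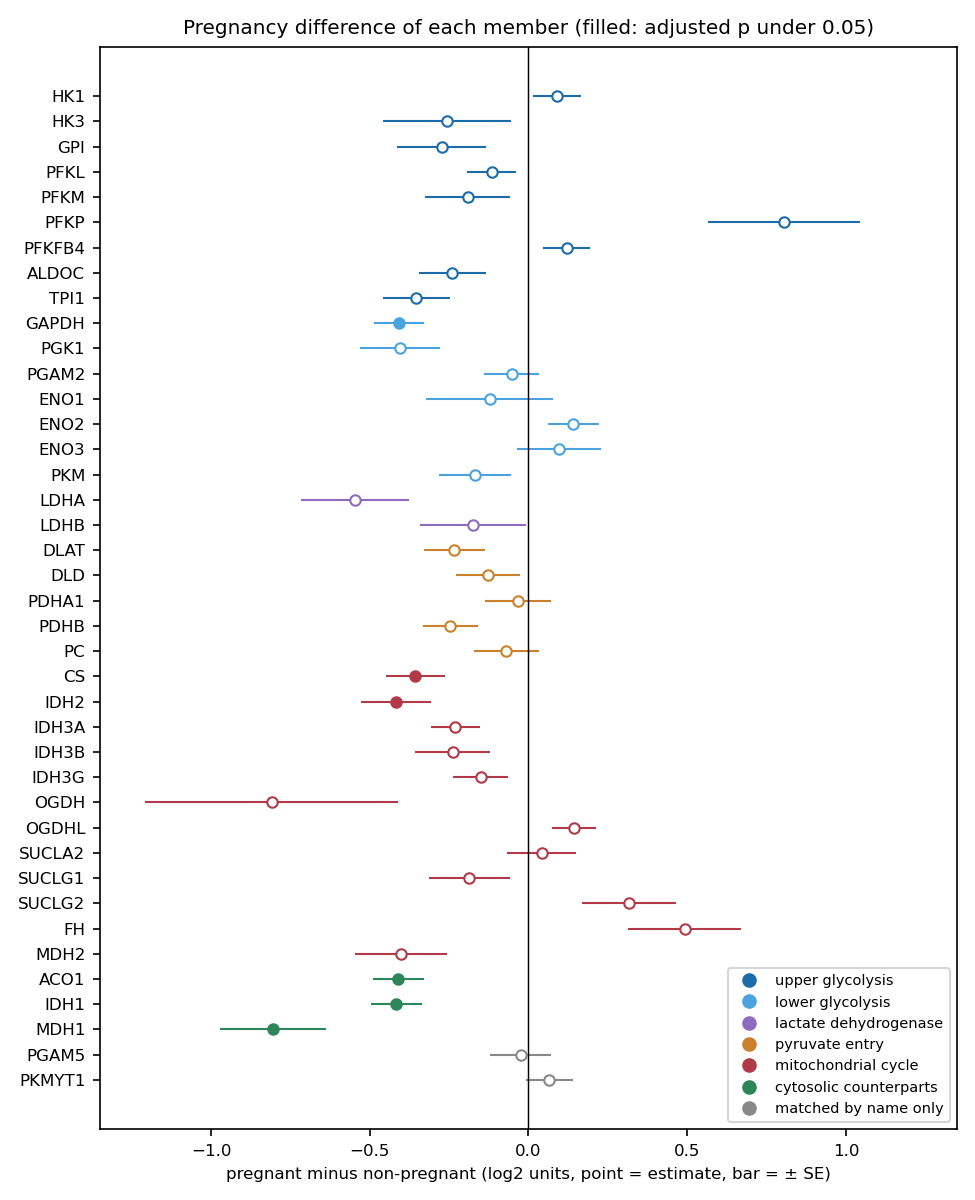
Difference between pregnant and non-pregnant sows on the x axis (log2 units, n = 6 each, estimate ± SE) for each of the 40 genes on the y axis, coloured by role, with filled points for an adjusted p under 0.05. The 3 cytosolic counterparts are all filled and lie between -0.81 and -0.41, while PFKP at 0.80 lies farthest to the right with an open point.

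The cytosolic counterparts formed the one role in which every member was called lower. MDH1, the cytosolic malate dehydrogenase of the malate-aspartate shuttle, had a lowest, median and highest log2 level of 10.82, 11.12 and 11.82 in pregnant sows and 11.53, 12.08 and 12.31 in non-pregnant sows. All pregnant sows but sow 12 lay below the lowest non-pregnant sow. MDH1 fell to 57.2% of the non-pregnant level, a log2 difference of -0.81 ± 0.17 (± SE, adjusted p = 0.0155). ACO1 is the cytosolic aconitase, which when it lacks its iron-sulphur cluster binds iron-responsive elements of messenger RNAs. Its log2 levels were 9.44, 9.59 and 9.69 in pregnant sows against 9.80, 9.97 and 10.31 in non-pregnant sows, with no overlap. The log2 difference of ACO1 was -0.41 ± 0.08 (adjusted p = 0.0124). IDH1, the cytosolic NADP-dependent isocitrate dehydrogenase and a source of NADPH, had log2 levels of 7.80, 8.09 and 8.33 in pregnant and 8.34, 8.48 and 8.62 in non-pregnant sows. These groups did not overlap either, though the gap between them was 0.01 wide, and the log2 difference was -0.42 ± 0.08 (adjusted p = 0.0128). Averaged over the 3 genes and relative to the non-pregnant mean, each pregnant sow lay between -0.72 and -0.28 and each non-pregnant sow between -0.10 and 0.10. All 3 had been called lower in these same sows, so their mean is no separate support. In the other enzyme roles such means overlapped between the groups. MDH1, ACO1 and IDH1 kept their calls whichever sow of the 12 was left out.

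The other ACO1 probe sets, both dimmer, fell by more. Their log2 differences were -0.999 (adjusted p = 0.00758) and -1.01 (adjusted p = 0.00688), so averaging all 3 sets gave -0.81 in place of -0.41. Both also passed the test within Landrace sows alone, at -1.29 (adjusted p = 0.0243) and -1.25 (adjusted p = 0.0310). The size of the ACO1 fall therefore depends on the probe set, while its sign was the same in the 3 sets.

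**Figure D2:**
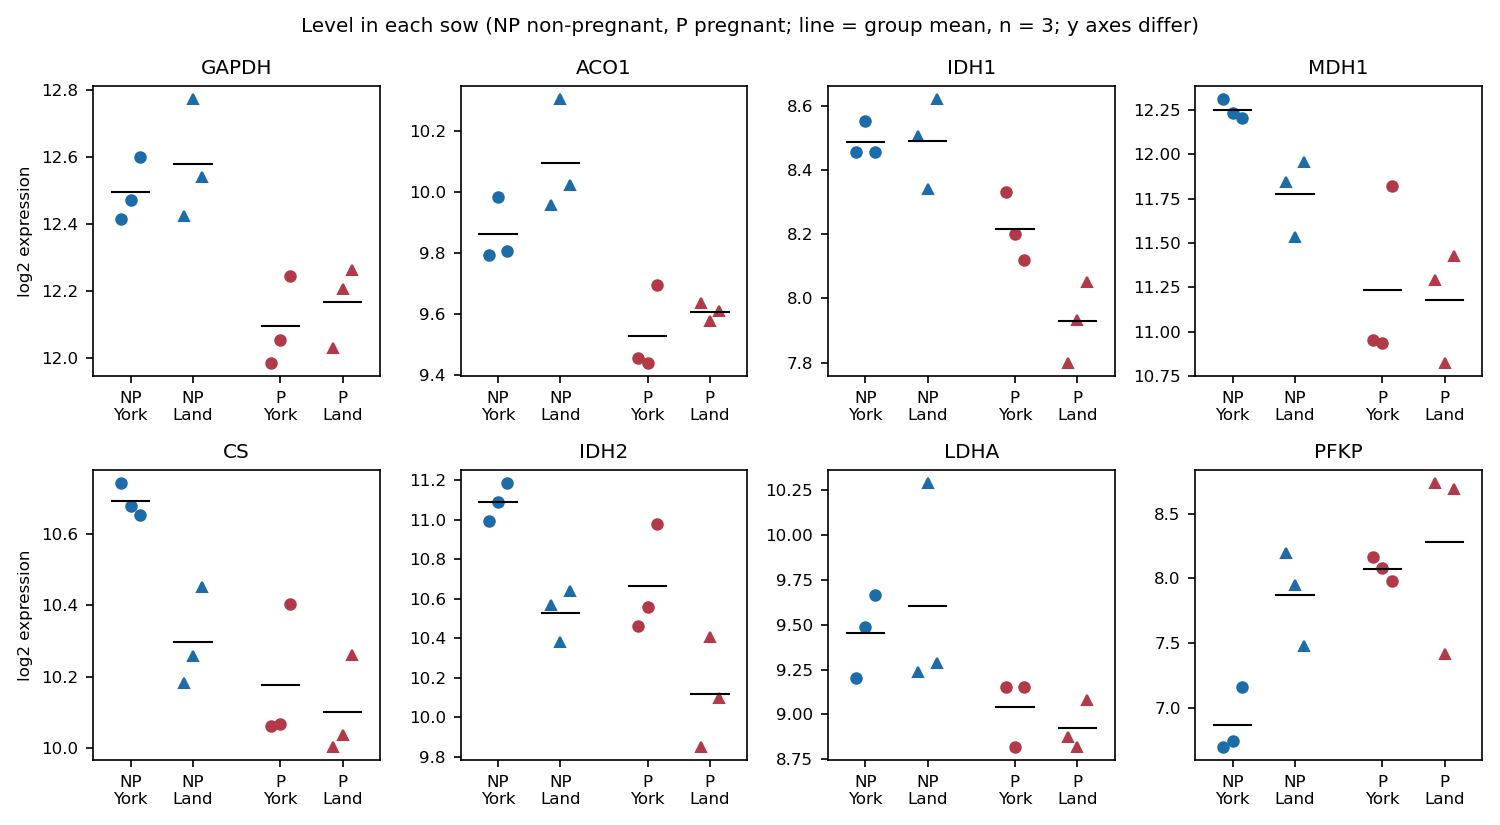
Log2 expression of 8 genes in each sow on the y axis, by pregnancy and breed on the x axis (circles Yorkshire, triangles Landrace, blue non-pregnant, red pregnant, black lines means of 3 sows, y axes differ). GAPDH, ACO1, IDH1 and LDHA show no overlap between the pregnant and non-pregnant sows, whereas in MDH1, CS, IDH2 and PFKP the groups overlap.

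Among the 40, 2 of the 12 genes of the mitochondrial cycle fell and 0 rose, and the median log2 difference of the 12 was -0.21. CS joins acetyl-CoA to oxaloacetate in the entry step of the cycle. Its log2 levels were 10.00, 10.06 and 10.40 in pregnant and 10.18, 10.55 and 10.74 in non-pregnant sows. The pregnant sows 2, 4, 6 and 8 lay below every non-pregnant sow, and the log2 difference was -0.36 ± 0.09 (adjusted p = 0.0383). A second CS probe set differed by -0.30 (adjusted p = 0.111). The CS call was lost with cyclic loess (adjusted p = 0.0507), with the mean of its probe sets (0.0586) and without the breed term (0.0884). IDH2, the mitochondrial NADP-dependent isocitrate dehydrogenase, had log2 levels of 9.85, 10.43 and 10.98 in pregnant and 10.38, 10.82 and 11.19 in non-pregnant sows. The groups overlapped widely and the breeds differed too, and with breed in the fit the log2 difference was -0.42 ± 0.11 (adjusted p = 0.0388). Without the breed term the adjusted p was 0.234, and with averaged within-breed contrasts 0.0509. The calls on CS and IDH2 did not hold on leaving out single sows. CS lost its call when any of the non-pregnant sows 1, 3, 9 and 11 or of the pregnant sows 2, 4 and 6 was left out, with log2 differences between -0.41 and -0.31 and adjusted p up to 0.0898 over the 12 omissions. IDH2 lost its call when any of the non-pregnant sows 1, 3, 5, 9 and 11 or of the pregnant sows 2, 4, 6 and 10 was left out, with log2 differences between -0.49 and -0.36 and adjusted p up to 0.0919.

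The other mitochondrial enzymes moved in both directions, none past the threshold. OGDH, the oxoglutarate-decarboxylating subunit of its dehydrogenase complex, had log2 levels of 8.50, 9.31 and 11.31 in pregnant and 9.60, 10.51 and 10.92 in non-pregnant sows. Pregnant sow 8 was the highest of all 12 sows and the other 5 pregnant sows lay between 8.50 and 9.62. Over all sows the log2 difference was -0.81 ± 0.40 (adjusted p = 0.251), and without sow 8 it was -1.16 (adjusted p = 0.0261). The other 11 single omissions left OGDH uncalled, with adjusted p up to 0.456. FH, the fumarase that hydrates fumarate to malate, went the other way, with log2 levels of 8.62, 9.41 and 10.14 in pregnant and 8.61, 8.92 and 9.24 in non-pregnant sows. All pregnant sows but sow 4 lay above the highest non-pregnant sow. The log2 difference of FH was 0.49 ± 0.18 (adjusted p = 0.114), and it was 0.62 without sow 4 (adjusted p = 0.0407). FH stayed uncalled in the other 11 single omissions, with adjusted p up to 0.227. SUCLG2, the GTP-forming beta subunit of succinyl-CoA ligase, had log2 levels of 8.09, 8.46 and 9.09 in pregnant and 7.97, 8.24 and 8.34 in non-pregnant sows. Sows 2 and 4 gave the upper values, and the log2 difference was 0.32 ± 0.15 (adjusted p = 0.220).

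NAD-dependent isocitrate dehydrogenase, which carries the oxidative flux of the cycle, has subunits encoded by IDH3A, IDH3B and IDH3G. IDH3B had log2 levels of 7.19, 7.56 and 7.85 in pregnant and 7.53, 7.76 and 8.04 in non-pregnant sows, with overlap and a log2 difference of -0.24 ± 0.12 (adjusted p = 0.255). The log2 differences of IDH3A and IDH3G were -0.23 and -0.15, and the second IDH3A probe set gave -0.27. MDH2, the mitochondrial malate dehydrogenase, differed by -0.40 (adjusted p = 0.113). SUCLG1, the shared alpha subunit of succinyl-CoA ligase, differed by -0.19 over all sows and by -0.32 without pregnant sow 8 (adjusted p = 0.0175). It stayed uncalled in the other 11 single omissions, with adjusted p up to 0.656. SUCLA2, the ATP-forming beta subunit of that ligase, differed by 0.04, and OGDHL, a relative of OGDH near background, by 0.14.

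In the upper part of glycolysis, 0 of 9 genes were called with limma, and at an unadjusted p under 0.05 there were 2 lower and 1 higher. PFKP, the platelet-type subunit of phosphofructokinase, which commits fructose 6-phosphate to glycolysis, was singled out after its values were seen. Its log2 levels were 7.42, 8.12 and 8.73 in pregnant and 6.70, 7.32 and 8.20 in non-pregnant sows. Within Yorkshire the pregnant sows, at 7.98, 8.08 and 8.17, all lay above the non-pregnant ones, at 6.70, 6.75 and 7.16, while the Landrace sows overlapped because pregnant sow 8 was at 7.42. The log2 difference over all sows was 0.80 ± 0.24 (adjusted p = 0.0607), and without sow 8 it was 1.04 (adjusted p = 0.00319). In the other 11 single omissions PFKP was not called, with adjusted p up to 0.132. The other subunits, PFKL of liver type and PFKM of muscle type, had log2 differences of -0.12 and -0.19.

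TPI1, the isomerase of the triose phosphates, had log2 levels of 8.51, 8.61 and 9.18 in pregnant and 8.82, 9.10 and 9.22 in non-pregnant sows. Sow 12 held the highest pregnant value, and the other 5 pregnant sows lay below every non-pregnant sow. The log2 difference was -0.35 ± 0.11 (adjusted p = 0.0620), and without sow 12 it was -0.44 (adjusted p = 0.00663). TPI1 stayed uncalled in the other 11 single omissions, with adjusted p up to 0.136. GPI, which interconverts glucose and fructose 6-phosphate, had log2 levels of 8.86, 9.001 and 9.70 in pregnant and 9.05, 9.36 and 9.88 in non-pregnant sows, a log2 difference of -0.27 ± 0.14 (adjusted p = 0.276). Of the hexokinases that trap glucose in the cell, HK3 had log2 levels of 6.37, 7.08 and 7.27 in pregnant and 6.83, 7.05 and 8.16 in non-pregnant sows, with a log2 difference of -0.26 ± 0.20 (adjusted p = 0.515). The other HK3 probe sets had the opposite sign, at 0.09 and 0.11, but the set at 0.11 lay below the lower quartile on all 12 arrays, near background. HK1 differed by 0.09. ALDOC, an aldolase, had log2 levels of 5.84, 6.06 and 6.19 in pregnant and 6.06, 6.21 and 6.67 in non-pregnant sows, a log2 difference of -0.24 ± 0.11 (adjusted p = 0.193). PFKFB4, which sets the level of the phosphofructokinase activator fructose 2,6-bisphosphate, had log2 levels of 6.01, 6.08 and 6.16 in pregnant and 5.66, 6.02 and 6.05 in non-pregnant sows. The PFKFB4 groups overlapped, with a log2 difference of 0.12 ± 0.07 (adjusted p = 0.368).

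In the lower part of glycolysis, 1 of 7 genes fell. GAPDH, which oxidises glyceraldehyde 3-phosphate and is widely used as a reference gene, had log2 levels of 11.99, 12.13 and 12.26 in pregnant and 12.42, 12.51 and 12.77 in non-pregnant sows. The groups did not overlap, and GAPDH fell to 75.4% of the non-pregnant level, a log2 difference of -0.41 ± 0.08 (adjusted p = 0.0123). The call held whichever sow was left out. The next brightest GAPDH probe sets fell as well, with log2 differences of -0.52 (adjusted p = 0.0123) and -0.61 (adjusted p = 0.0218), while the dimmest 2, near background, differed by -0.13 and -0.04 (adjusted p = 0.232 and 0.870). The array also carries 9 manufacturer control probe sets for the same transcript, left out of the fit. All 9 were lower in pregnant sows, by log2 differences of -0.62 to -0.45, and in 8 of them the groups did not overlap (exact permutation tests over sows, two-sided, adjusted p over the 9 between 0.00244 and 0.00433). Apart from GAPDH, LDHA, ACO1 and IDH1, none of the 40 genes separated the 2 groups completely. Of the 6765 genes, 3.0% had all pregnant below all non-pregnant sows and 1.54% the reverse.

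**Figure D3:**
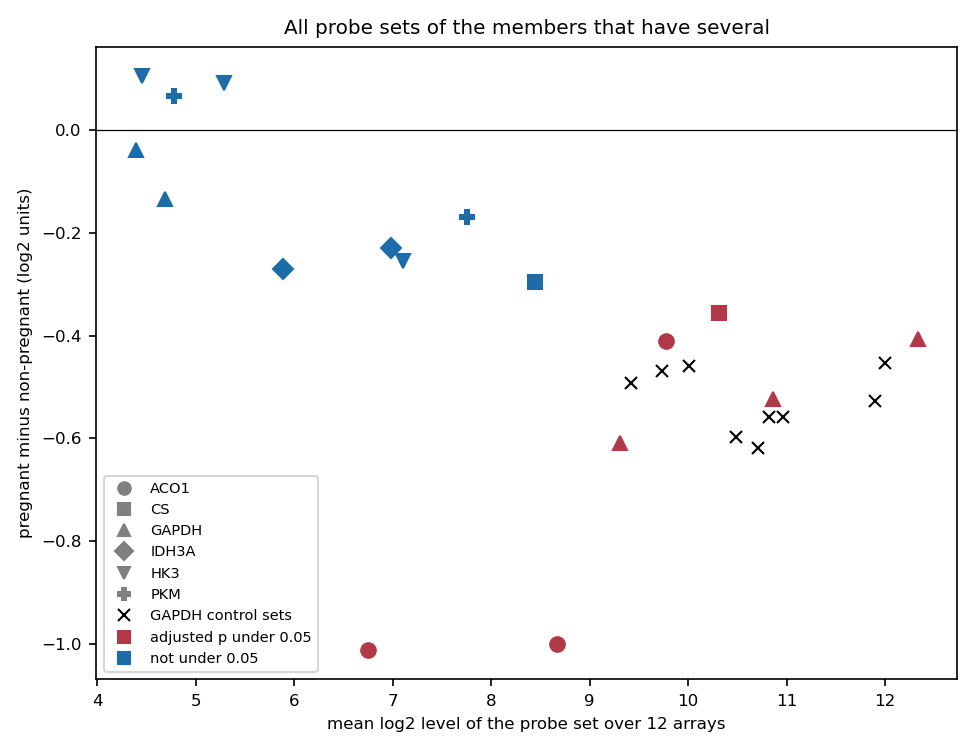
Pregnancy difference (log2 units, y axis) of every probe set of the 6 genes that had several, against its mean log2 level over 12 arrays (x axis), with the 9 GAPDH control probe sets as crosses and red for an adjusted p under 0.05. The 3 ACO1 sets are all red and range from -1.01 to -0.41, and all crosses lie between -0.62 and -0.45.

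PGK1, which makes ATP from 1,3-bisphosphoglycerate, had log2 levels of 9.24, 9.40 and 9.53 in pregnant and 9.51, 9.72 and 10.43 in non-pregnant sows. Only pregnant sow 12 lay above the lowest non-pregnant sow, and the log2 difference was -0.40 ± 0.13 (adjusted p = 0.0716). Leaving out non-pregnant sow 7, which held the highest value, gave -0.28 (adjusted p = 0.0455), and leaving out sow 12 gave -0.46 (adjusted p = 0.0451). The other 10 single omissions left PGK1 uncalled, with adjusted p up to 0.136. PGAM2, the muscle-type phosphoglycerate mutase, had log2 levels of 5.37, 5.56 and 5.74 in pregnant and 5.41, 5.63 and 5.88 in non-pregnant sows, a log2 difference of -0.05 ± 0.09 (adjusted p = 0.783). Among the enolases, ENO2 had log2 levels of 6.02, 6.09 and 6.28 in pregnant and 5.76, 5.96 and 6.18 in non-pregnant sows, with overlap and a log2 difference of 0.14 ± 0.08 (adjusted p = 0.331). ENO1, the broadly expressed enolase, differed by -0.12 and ENO3, the muscle form, by 0.10. PKM, the pyruvate kinase that yields pyruvate and ATP, had log2 levels of 7.47, 7.68 and 7.81 in pregnant and 7.49, 7.82 and 8.19 in non-pregnant sows. Its log2 difference was -0.17 ± 0.11 (adjusted p = 0.419), and its dimmer second probe set had the opposite sign at 0.07.

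Neither lactate dehydrogenase gene was called, although LDHA separated the groups. LDHA encodes the subunit that prevails where pyruvate is reduced to lactate, and its log2 levels were 8.82, 8.97 and 9.15 in pregnant and 9.20, 9.39 and 10.29 in non-pregnant sows. Non-pregnant sow 7 held the highest value, and the groups did not overlap. Over all sows the log2 difference was -0.55 ± 0.17 (adjusted p = 0.0720), and without sow 7 it was smaller, at -0.38, and was called (adjusted p = 0.0379). In the other 11 single omissions LDHA was not called, with adjusted p up to 0.146. LDHB, the subunit typical of lactate-oxidising tissue, differed by -0.17.

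At the entry of pyruvate into mitochondria, 0 of 5 genes were called with limma, 2 were lower at an unadjusted p under 0.05, and all 5 log2 differences were negative. PDHB, the beta subunit of pyruvate dehydrogenase, had log2 levels of 9.17, 9.46 and 9.56 in pregnant and 9.50, 9.64 and 9.81 in non-pregnant sows. The PDHB groups overlapped, with a log2 difference of -0.25 ± 0.09 (adjusted p = 0.105). The other components of the complex, DLAT with the acetyl transferase, DLD with the dihydrolipoamide dehydrogenase and PDHA1 with the alpha subunit, had log2 differences of -0.23, -0.13 and -0.03. PC, the pyruvate carboxylase that refills oxaloacetate, had log2 levels of 7.82, 7.86 and 8.36 in pregnant and 7.74, 7.96 and 8.36 in non-pregnant sows, a log2 difference of -0.07 ± 0.10 (adjusted p = 0.756). The genes matched by name only stayed close to zero. PGAM5 had log2 levels of 8.06, 8.40 and 8.63 in pregnant and 8.28, 8.40 and 8.61 in non-pregnant sows (log2 difference -0.02 ± 0.10, adjusted p = 0.918). PKMYT1 had log2 levels of 5.85, 6.01 and 6.20 in pregnant and 5.76, 5.99 and 6.07 in non-pregnant sows (log2 difference 0.07 ± 0.07, adjusted p = 0.668).

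Isoforms of the same step were also set against each other, as the log2 difference between them in each sow, in 12 pairs. The pregnancy difference of PFKP exceeded that of PFKL by 0.92 ± 0.28 on the log2 scale (exact permutation p = 0.0200, two-sided, sows exchanged within breed, adjusted over the 12 pairs 0.150). Against PFKM the excess was 1.00 ± 0.31 (exact permutation p = 0.0250, adjusted 0.150). MDH1 lay 0.40 further down than MDH2 (log2 difference of differences -0.40 ± 0.20, exact permutation p = 0.0750, adjusted 0.240). OGDHL and ENO3 lay near background, so the pairs that hold them are no contrast of isoforms. The pregnancy differences of IDH1 and IDH2 differed from each other by 0.00 ± 0.13 on the log2 scale (exact permutation p = 0.990). None of the 12 pairs passed after adjustment, and the smallest p the 400 rearrangements allow is 0.005.

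**Figure D4:**
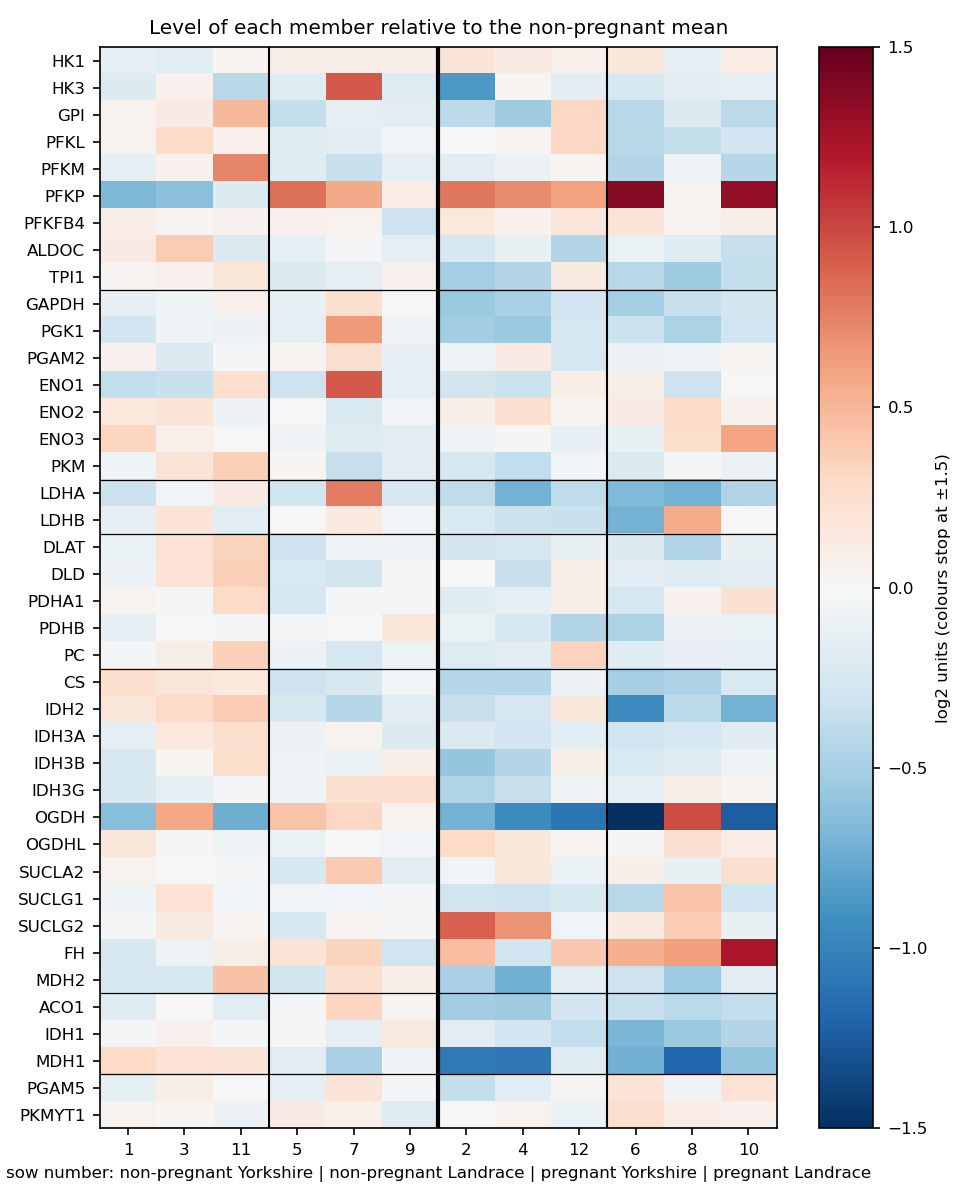
Level of each of the 40 genes (rows, grouped by role) in each sow (columns, grouped by pregnancy and breed) relative to the non-pregnant mean, in log2 units, with red above, blue below and colours ending at 1.5 in either direction. MDH1 is blue in all pregnant sows, OGDH is red in pregnant sow 8 and blue in the other 5, and HK3, PGK1, ENO1 and LDHA are red in non-pregnant sow 7.

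Other genes around these pathways were counted on 8 lists, chosen with results of these data known. The first is a mixed list of glucose transporters, regulators of pyruvate dehydrogenase, pyruvate carriers, and further enzymes outside the 40 (the succinate dehydrogenase subunits and DLST of the citric acid cycle, BPGM, LDHC, LDHD and ADPGK). Of its 21 measured genes, 2 rose and 4 fell, with a list median of -0.07. The glucose transporter SLC2A1 rose by 1.91 on the log2 scale (adjusted p = 0.00289) and SLC2A3, another glucose transporter, fell by 1.48 (adjusted p = 0.0164). SLC2A1 was also higher in Landrace than in Yorkshire sows (log2 difference 1.08, adjusted p = 0.0194). PDK4, a kinase that inactivates pyruvate dehydrogenase, rose by 1.60 (adjusted p = 0.00185), and LDHD, a D-lactate dehydrogenase, fell by 1.21 (adjusted p = 0.0150). The remaining called genes of that list, the phosphatase subunit PDP2, which reactivates pyruvate dehydrogenase, and the succinate dehydrogenase subunit SDHC, a cycle enzyme, differed by -0.41 and -0.58 on the log2 scale.

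Of 5 measured genes of the gluconeogenic bypass, 2 rose and 0 fell (list median 0.50). These were SLC37A4, the glucose 6-phosphate carrier of the endoplasmic reticulum, at a log2 difference of 0.74 (adjusted p = 0.0278), and PCK1, the cytosolic phosphoenolpyruvate carboxykinase, at 0.50 (adjusted p = 0.0304). Of 7 genes of the pentose phosphate pathway, 1 rose and 0 fell (list median 0.20), namely PRPS2, a phosphoribosyl pyrophosphate synthetase, at 0.40 (adjusted p = 0.0482). Of 13 glycogen genes, 0 were called with limma, and at an unadjusted p under 0.05 there were 1 higher and 2 lower (list median -0.02). Of 3 genes of lactate transport, 1 rose and 0 fell (list median 0.12), namely EMB, the embigin that escorts monocarboxylate transporters to the membrane, by 3.51 on the log2 scale (adjusted p = 0.00464).

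Of 3 genes of fructose and polyol metabolism, 0 rose and 1 fell (list median 0.02), namely SORD, which oxidises sorbitol to fructose, at a log2 difference of -1.31 (adjusted p = 0.0119). Of 13 genes of shuttles, anaplerosis and citrate export, 0 rose and 3 fell (list median -0.02). GOT1, the cytosolic aspartate aminotransferase that partners MDH1 in the malate-aspartate shuttle, fell by 1.28 on the log2 scale (adjusted p = 0.0164). GOT1 was also lower in Landrace than in Yorkshire sows (log2 difference -1.15, adjusted p = 0.0303). Other genes of that shuttle on the list, GOT2, SLC25A12 and SLC25A11, were not called, with log2 pregnancy differences of 0.07, 0.18 and -0.17. SLC25A1, the carrier that exports citrate from mitochondria, fell by 1.11 (adjusted p = 0.00887), and ME2, the mitochondrial malic enzyme, fell by 0.55 (adjusted p = 0.0273). Of 14 regulators of glycolysis and the response to low oxygen, 2 rose and 0 fell (list median 0.09). TXNIP, which restrains glucose uptake, rose by 0.57 on the log2 scale (adjusted p = 0.00734) and PPARGC1A, a coactivator of mitochondrial genes, by 0.59 (adjusted p = 0.0476). PPARGC1A was also lower in Landrace than in Yorkshire sows (log2 difference -0.68, adjusted p = 0.0340). The lists are small, and their counts are read beside the 7.48% of genes called lower and 4.58% called higher.

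Between the breeds, 2 of the 40 genes were lower in Landrace than in Yorkshire sows and 0 were higher, with pregnancy as a term in the fit. Of all probe sets, 2.93% were lower and 2.22% higher, and of the 6765 genes 3.24% and 2.03%. At an unadjusted p under 0.05, 4 of the 40 were lower and 2 higher, against 12% and 9.98% of the 6765. IDH2 had log2 levels of 9.85, 10.39 and 10.64 in Landrace and 10.46, 10.99 and 11.19 in Yorkshire sows, so that the breeds overlapped. The log2 difference of IDH2, Landrace minus Yorkshire, was -0.56 ± 0.11 (adjusted p = 0.0137), and without the pregnancy term its adjusted p was 0.0818. PFKL had log2 levels of 7.59, 7.77 and 7.96 in Landrace and 8.01, 8.06 and 8.32 in Yorkshire sows. The breeds did not overlap for PFKL, as for 1.71% of the 6765 genes with all Landrace lower and 1.17% with all Landrace higher, and its log2 difference was -0.37 ± 0.08 (adjusted p = 0.0195). Leaving out sows 7 and 12 together gave -0.31 (adjusted p = 0.0546). The median breed difference of the 40 was 0.02 on the log2 scale, with 19 below zero, where that of the 6765 genes was 0.00 with 49.3% below zero.

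PFKP, with a breed difference of 0.60 ± 0.24 (adjusted p = 0.175), was called without pregnant sow 8, at 0.84 (adjusted p = 0.00797). IDH3G differed between the breeds by 0.28 (adjusted p = 0.0807) over all sows and by 0.33 without pregnant sow 12 (adjusted p = 0.0499). For each gene the other 11 single omissions gave no breed call, with adjusted p up to 0.313 for PFKP and 0.152 for IDH3G. A sign of RNA integrity also differed between the breeds. The log2 difference between the 3′ and 5′ GAPDH control probe sets was 1.07 ± 0.14 in Landrace and 1.49 ± 0.13 in Yorkshire sows (SD, n = 6 each, exact permutation p = 0.00216, the smallest possible). The other pairs of GAPDH controls gave breed differences of -0.18 (exact permutation p = 0.0130) and -0.09 (exact permutation p = 0.0931). The part of RNA integrity in the breed differences was not tested. Between pregnant and non-pregnant sows it was 1.36 ± 0.20 and 1.20 ± 0.29 (exact permutation p = 0.273).

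Within the breeds, with 3 pregnant and 3 non-pregnant sows each, few genes passed the test, and a difference that was not called is not shown to be absent. Among Yorkshire sows, 0 of the 40 were called with limma, as were 0.00% of all probe sets in either direction. At an unadjusted p under 0.05, 11 of the 40 were lower and 2 higher in pregnant Yorkshire sows, against 13% and 8.68% of the 6765 genes. The largest Yorkshire log2 differences were 1.20 ± 0.31 for PFKP (adjusted p = 0.127) and -1.01 ± 0.23 for MDH1 (adjusted p = 0.101). Without pregnant sow 12, 4 genes were called lower (CS, GPI, MDH1 and TPI1) and SUCLG2 was called higher. Without pregnant sow 8, which enters this contrast through the shared estimate of the spread, PFKP alone was called, as higher.

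Among Landrace sows, IDH1 was the 1 gene called lower and 0 were called higher, where 0.479% of all probe sets and 0.828% of the 6765 genes were called lower and 0.550% and 0.813% higher. At an unadjusted p under 0.05, 7 of the 40 were lower and 3 higher in pregnant Landrace sows, against 12.3% and 8.40% of the 6765 genes. Its log2 levels were 7.80, 7.93 and 8.05 in pregnant and 8.34, 8.51 and 8.62 in non-pregnant Landrace sows, a log2 difference of -0.56 ± 0.10 (adjusted p = 0.0356). This call was lost on leaving out sow 1, 3, 5, 6, 9 or 10, with adjusted p up to 0.132. Beside IDH1, OGDH was called without pregnant sow 8 and ACO1 without pregnant sow 12. For the difference between the breeds in the pregnancy effect, 0 of the 40 genes and 0.00% of all probe sets were called with limma, every adjusted p of the 40 being 1.00. At an unadjusted p under 0.05 this interaction held 2 higher, ENO3 (0.57 ± 0.22) and PKM (0.44 ± 0.20), and 0 lower, against 2.29% and 2.68% of the 6765 genes. The 6 genes that fell over all sows had negative log2 differences in both breeds. They ran from -1.01 to -0.27 in Yorkshire and from -0.60 to -0.20 in Landrace sows. These genes were chosen by their fall over all sows, which averages the breeds, so the shared sign is largely set by the choice.

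**Figure D5:**
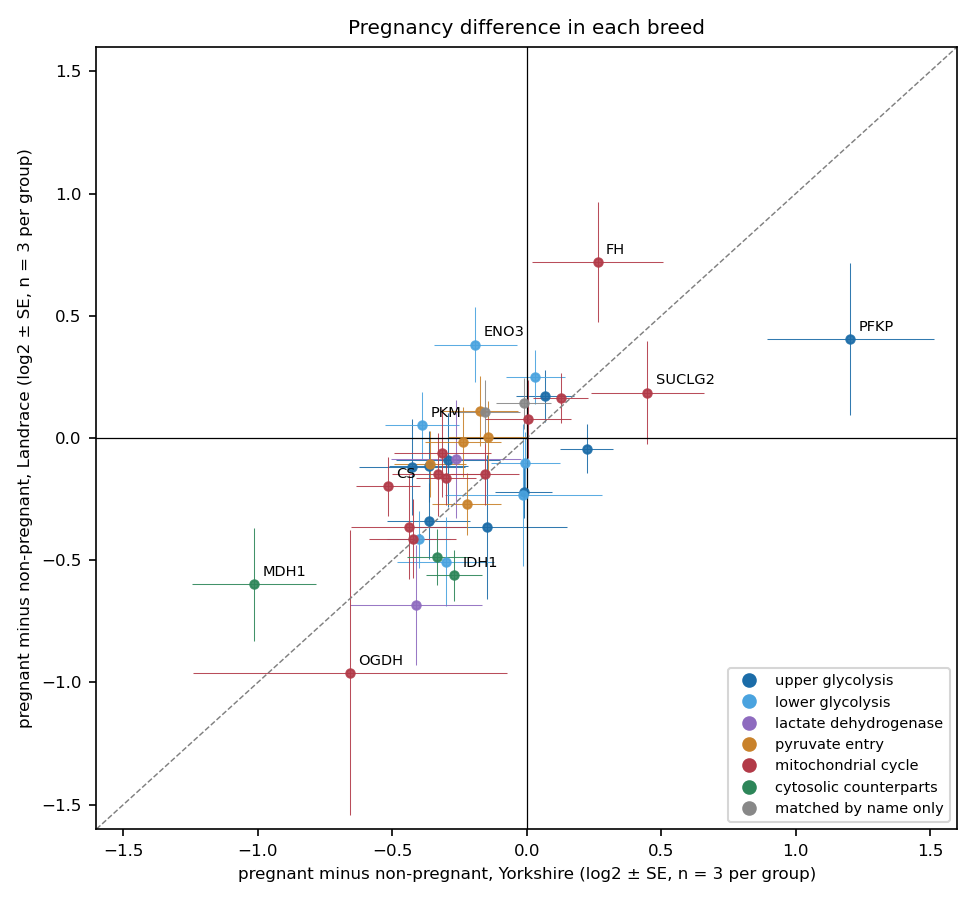
Pregnancy difference in Landrace sows (y axis) against that in Yorkshire sows (x axis) for the 40 genes, in log2 units with SE bars, 3 pregnant and 3 non-pregnant sows per breed, coloured by role, with a dashed line of equal differences. PFKP lies at 1.20 in Yorkshire and 0.41 in Landrace sows, MDH1 at -1.01 and -0.60, and FH at 0.26 and 0.72.

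Markers of the cell types of the tissue were measured beside these results. Their counts, here and below, are read beside the 4.58% of the 6765 genes called higher and 7.48% called lower with pregnancy. For breed, 2.03% of these genes were called higher and 3.24% lower in Landrace. Of 10 endothelial markers, 7 rose with pregnancy and 0 fell, and their mean log2 level was 7.25 to 7.76 in pregnant and 6.62 to 7.11 in non-pregnant sows. Of 8 stromal markers, 4 rose and 1 fell (mean level 9.75 to 10.36 and 9.49 to 10.06), and of 10 epithelial markers, MUC1 rose and KRT8 fell (9.28 to 10.01 and 9.67 to 9.94). Of 8 smooth muscle markers 1 rose and 0 fell (8.18 to 8.79 and 7.97 to 8.36). The 7 T and NK cell markers (5.32 to 5.60 in pregnant and 5.15 to 6.39 in non-pregnant sows) and the 3 red blood cell markers (5.88 to 6.75 and 6.07 to 6.45) had 0 calls with limma. At an unadjusted p under 0.05, 0 of the former and 1 of the latter, lower, stood out. Between the breeds, the epithelial CLDN3 was higher in Landrace (log2 difference 0.54, adjusted p = 0.0394) and the stromal COL1A2 lower (-0.77, adjusted p = 0.0266), and no other marker was called. The mean of the epithelial markers was 9.28 to 10.01 in Landrace and 9.54 to 9.85 in Yorkshire sows, and that of the stromal markers 9.49 to 10.20 and 9.78 to 10.36. The part of such shifts in the enzyme results, IDH2 and PFKL included, was not tested.

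Of 6 trophoblast markers, 0 were called with limma and 1 was lower at an unadjusted p under 0.05, with a mean level of 5.46 to 7.58 in pregnant and 5.32 to 5.85 in non-pregnant sows. IFNG, which pig conceptuses secrete at this stage, was at 8.21 in pregnant sow 6 and 12.65 in pregnant sow 10 and between 4.00 and 4.26 in the other pregnant sows, which is within the non-pregnant range of 3.61 to 4.41. The falls of GAPDH, ACO1, IDH1 and MDH1 were called without sow 6 and without sow 10. Sows 6 and 10 were not left out together, so the other stayed in each of these fits. The part of conceptus tissue in the falls was not tested. Of 7 macrophage and neutrophil markers, 1 rose (S100A9), and their mean level was 5.93 to 7.60 in pregnant and 5.002 to 7.59 in non-pregnant sows. Non-pregnant sow 7 held that 7.59, the other non-pregnant sows not exceeding 5.27. It was also the sow with the highest T and NK cell mean (6.39) and the highest HK3, PGK1, ENO1, LDHA, PGAM2 and SUCLA2. Of the called genes, GAPDH (12.77) and ACO1 (10.31) were highest in sow 7 too. Whether these go together was not tested.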

How the data were processed

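Per the labels' protocols, TRIzol RNA from the endometrium of each sow was hybridised as biotinylated cRNA to 1 Affymetrix porcine array. The deposited values are log2 expression per probe set, and the submitters' processing notes name RMA and the affy and limma packages, without versions. RMA makes the arrays' distributions alike, so a difference is measured against the rest of the array, and low values hold mostly background, which shrinks differences. Arrays carry no counts, and the number of sows limits the precision.

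Of 24123 probe sets, 124 manufacturer controls were left out, leaving 23999. Symbols came from the platform annotation. All 40 members matched the RefSeq gene table of Sscrofa11.1, which changed 0 symbols. No coordinates are given because the array's build is not given in the sources used here.

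Tests used limma 3.58.1 in R 4.3.3 (lmFit, eBayes, two-sided, all 12 arrays) with Benjamini-Hochberg adjustment over 23999 probe sets. Pregnancy and breed came from an additive fit with 9 residual degrees of freedom, within-breed effects and the interaction from 4 group means with 8. The procedure was tested on simulated data. Isoform pairs and GAPDH controls had exact permutation tests (scipy 1.17.1). Members and lists were chosen with earlier results of these data known. Every member is named, with full values where called or where its difference was the largest of a step without a call, and from each pathway list at most 4 called genes with the smallest p. PFKP, SDHC, PDP2, GOT2, SLC25A11, SLC25A12, IFNG and the sows named beside values were picked after the values were seen.

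Alternatives were cyclic loess, centring of array medians, leaving out dim probe sets (not above 6.29 on at least 3 arrays), a robust prior with an intensity trend, array weights, a threshold of 0.01, the mean of a gene's probe sets, fits without the other factor, the average of the within-breed contrasts, and omission of each sow or of sows 7 and 12 together. Cyclic loess and the omission of sows for the isoform pairs, and the other pairs of GAPDH controls, were chosen after seeing the data.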

Additional observations from a re-analysis of the deposited data

Results flagged for a closer look

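In each of 80 groups (40 genes in 6 pregnant and in 6 non-pregnant sows) the highest and lowest sow were set against the rest by Dixon's ratio, the gap to the nearest sow divided by the range at its 95% critical value. In 10 of the 80 a sow stood apart. The critical value allows about 1 in 20 by chance in independent groups drawn from a single population. Here the groups share the same 12 arrays and each mixes the breeds, so the count is not read against that rate. Non-pregnant sow 7 was high for HK3, at 8.157 with the next sow at 7.30, and for PGK1, at 10.43 with the next at 9.74. Pregnant sow 12 was high for TPI1, at 9.182 with the next at 8.69, and for PC, at 8.358 with the next at 7.89. Pregnant sow 8 was low for HK1, at 9.335 with the next at 9.54, and high for SUCLG1, at 10.73 with the next at 10.07. Pregnant sow 2 was low for HK3, at 6.374 with the next at 6.99. Among non-pregnant sows, sow 11 was high for PFKM at 6.584, sow 9 was low for PFKFB4 at 5.655, and sow 3 was high for SUCLG1 at 10.53. No gene called for pregnancy or breed is among them.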

How the results depend on the processing

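No paired analysis was run because no replicate number is shared between the pregnant and non-pregnant sows. The numbers alternate between the groups, and the labels do not say whether neighbouring sows were paired. At an adjusted p under 0.01 the counts of genes called lower were 0 for pregnancy, 0 for breed and 0 within Landrace. Over the other alternatives that kept all sows, or left out sows 7 and 12 together, 4 to 9 genes were lower for pregnancy, and GAPDH, ACO1, IDH1 and MDH1 were among them each time. The count called higher for pregnancy became 1 without dim probe sets (32 members left), with array weights and with averaged within-breed contrasts (PFKP each time) and 1 without sows 7 and 12 (SUCLG2). For breed, 1 was higher with cyclic loess (IDH3G), and 1 was lower without the pregnancy term and 1 without sows 7 and 12. Within Yorkshire, array weights gave 12 lower and 3 higher, and omission of sows 7 and 12 gave 7 lower and 1 higher. Within Landrace, 2 were lower with array weights, with the mean of all probe sets and without sows 7 and 12. On leaving out 1 sow at a time, the counts lower and higher ranged from 4 to 8 and 0 to 1 for pregnancy, 2 each time and 0 to 1 for breed, 0 to 4 and 0 to 1 within Yorkshire and 0 to 2 and 0 each time within Landrace. The causes of these shifts were not tested.

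Signs that turned belonged to small, uncalled differences. Over single omissions the log2 difference ranged from -0.21 to 0.0603 for ENO1, -0.0117 to 0.17 for ENO3, -0.0973 to 0.0238 for PDHA1, -0.0157 to 0.13 for SUCLA2 and -0.0726 to 0.0309 for PGAM5. Without sows 7 and 12, PGAM2 was at 0.0414 and ENO1 at 0.0018, array weights gave 0.0190 for ENO1, and cyclic loess gave 0.0109 for PGAM5. Among isoform pairs the ranges were -0.15 to 0.0703 for PFKM minus PFKL, -0.0340 to 0.15 for ENO2 minus ENO3 and -0.0779 to 0.10 for IDH1 minus IDH2, which cyclic loess put at -0.0154. The GAPDH 3′ minus 5′ difference for pregnancy was -0.00072 with another control pair (exact permutation p = 0.987), and for breed it was -0.0945 with a further control pair (exact permutation p = 0.0931).

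ENO3 and OGDHL lay below the lower quartile on 11 of 12 arrays, where values hold mostly background, which limits what their differences can show.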
